A study of Mus musculus with 8 samples.

Results

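Integrin and laminin genes were examined in mouse hearts under pressure overload. Members were the rows of the deposited gene table whose symbol is that of an integrin alpha chain (Itga followed by a number or letter), an integrin beta chain (Itgb1 to Itgb8) or a laminin alpha, beta or gamma chain (Lama, Lamb, Lamc). That rule uses names only and gave 37 of 30445 genes, made up of 8 leukocyte integrins, 18 non-leukocyte integrins and 11 laminins. Of these, 36 had enough counts to be tested, and Lama1 did not. The hearts were C57 mouse hearts taken 8 weeks after transverse aortic constriction (TAC), an operation that narrows the aorta, so that the left ventricle has to pump against a higher pressure. There were 4 libraries labelled wildtype and 4 labelled Mertk knockdown, and both groups had been operated, so the comparison is between genotype labels within operated hearts. The labels give neither the means by which Mertk was targeted nor the cells concerned, and they do not tie libraries to separate animals, so p-values measure only the spread between these libraries, which may be technical. The study asked what MERTK, a macrophage receptor for dying cells, does in this model.

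Integrins are pairs of an alpha and a beta chain that span the cell membrane and hold the cell to its surroundings. Outside the cell the pair decides the ligand, such as collagen, laminin, fibronectin or a receptor on another cell, and inside the cell talin, kindlin and vinculin tie it to actin. Laminins are three-chain proteins of one alpha, one beta and one gamma chain that form the sheet of the basement membrane around each cardiomyocyte and under the endothelium. In heart muscle the laminin receptors integrin alpha 7 beta 1 and dystroglycan link that sheet to the contractile apparatus. The leukocyte integrins, most of them partners of Itgb2 or Itgb7, let blood cells adhere to vessel walls and to each other.

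Some facts about the libraries come before the members. Mertk itself was not lower in the knockdown-labelled libraries: it stood at 11.02, 10.4, 10.5 and 12.3 CPM (read counts scaled to a common library total with TMM factors) in wildtype replicates 1 to 4 and at 12.8, 12.3, 10.6 and 11.8 CPM in the knockdown-labelled replicates, a log2 fold change of 0.10 (SE 0.11, edgeR's adjusted p = 0.766). Directions below therefore refer to the labels. Cardiomyocyte markers summed to between 31920 and 51070 CPM in every library, as the tissue label requires. Hepatocyte transcripts summed to 267 to 323 CPM in all 4 knockdown-labelled libraries and in wildtype replicate 1, against 46.9 to 51.1 CPM in the other 3 wildtype libraries. Fold changes within the libraries with hepatocyte transcripts thus rest on 1 wildtype library. Atrial transcripts were abundant in wildtype replicates 3 and 4 and knockdown-labelled replicate 4 (mean level of the markers other than Nppa 5.15 to 5.76 log2 CPM, against -1.61 to 0.48 elsewhere). Total counts ran from 59287621 to 71571173, and 3 counts in the shallowest library correspond to 0.0506 CPM. Such floors cover counting error only.

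Promoter sequences from RefSeq (build GRCm38.p6, the same coordinates as the mm10 build of the table) were found for 23 of the 37 members. The stretches before the start site are shown for 3 members with an entry whose library values stand out below. Itgb6 is an epithelial chain with no overlap between the groups, Itga5 is the fibronectin receptor chain with a lower share in the knockdown-labelled libraries, and Itgam is the myeloid chain with the widest spread among wildtype libraries. Capitals mark a PU.1 core (GAGGAA, the heart of the site bound by the myeloid factor PU.1) or a GC box (GGGCGG, a site for Sp1-type factors), on either strand. The sequences read 5′ to 3′ along the gene, from chr2:60722644-60722853 (minus strand), chr15:103366792-103367041 (minus strand) and chr7:128062390-128062639 (plus strand).
Itgb6: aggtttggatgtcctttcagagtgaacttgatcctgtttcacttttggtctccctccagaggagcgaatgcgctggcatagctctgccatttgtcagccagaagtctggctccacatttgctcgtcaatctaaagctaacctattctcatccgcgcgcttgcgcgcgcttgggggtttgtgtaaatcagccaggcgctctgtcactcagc
Itga5: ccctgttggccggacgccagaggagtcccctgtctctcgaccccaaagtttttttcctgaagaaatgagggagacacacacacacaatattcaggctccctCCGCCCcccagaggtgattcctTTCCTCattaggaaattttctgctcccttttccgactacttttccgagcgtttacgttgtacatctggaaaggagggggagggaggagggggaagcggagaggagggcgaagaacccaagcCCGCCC
Itgam: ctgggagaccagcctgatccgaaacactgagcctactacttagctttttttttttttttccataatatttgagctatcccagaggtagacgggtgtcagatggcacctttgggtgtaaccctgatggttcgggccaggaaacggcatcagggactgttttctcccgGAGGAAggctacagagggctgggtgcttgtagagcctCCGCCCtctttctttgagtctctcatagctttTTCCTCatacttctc
The window was the 250 bases before the RefSeq start. For Itgb6 the 40 bases nearest the start lie inside the deposited gene and are not printed.

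Itgam held a PU.1 core 84 bases before its start and another on the opposite strand 15 bases before it, with a GC box 47 bases before it. In Itga5 a PU.1 core lay 127 bases before the start and GC boxes 149 and 6 bases before it, all on the opposite strand. Itgb6 held neither motif. Among the 23 members with an entry, 11 held a PU.1 core (23.3% of the 32851 promoters in the table do) and 8 a GC box (32.7%). The RefSeq start lay 94295 bases from the 5′ end of the deposited gene for Lamb3, 2816 for Lama2 and 105002 for Itga9. Lamb3 and Lama2 are counted among those with a PU.1 core. Only 1 of the 4 leukocyte integrins with an entry, Itgam, held a PU.1 core. The TATA box (TATAAA) was in 0 of the 23, against 12.4% of all promoters. The AP-1 motif (TGANTCA) was in 1, Itgax (6.75% of all), and the interferon-stimulated element (TTTC, any 2 bases, TTTC) in 2, Itga2b and Itga3 (2.98% of all). All were searched on both strands over the same 250 bases, and a match is a description of letters, not a bound site.

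The heart expressed a few integrin and laminin chains strongly and most weakly. On the deposited FPKM scale, which corrects for gene length and so allows levels of different genes to be compared, 7 members averaged at least 10 FPKM over the 8 libraries, 12 lay between 1 and 10, and 18 lay under 1. Itgb1, the beta chain shared by most matrix-binding integrins, led with a mean of 57.6 FPKM (46.5 to 73.8 over the libraries). Next came Lamb2 at 44.3 FPKM (40.1 to 52.4), the laminin beta chain of muscle and vessel basement membranes. Itgb5, the beta partner of the vitronectin receptor, followed at 27.1 FPKM (21.2 to 35.0) and Lamc1, the common laminin gamma chain, at 18.4 FPKM (12.8 to 23.4). Then came Itga7, the muscle laminin receptor chain, at 12.7 FPKM, Lama5 at 12.6 and Itga5 at 12.2.

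The order of levels was mostly not resolved step by step. Of the 36 pairs of neighbours in that order, only Lamb2 and Itgb5 had ranges over the libraries that did not overlap. The middle of the order ran from Itga9 (7.90 FPKM), Lamb1 (7.57), Lama2 (5.49), Itga6 (5.32), Lama4 (4.58) and Itga1 (3.27) down to Itgb6 (1.31). Itgb2, the shared beta chain of leukocyte integrins, was the only leukocyte member above 1 FPKM on average, at 2.204 (1.64 to 3.46). The other 7 leukocyte integrins averaged between 0.0419 FPKM (Itgad) and 0.880 FPKM (Itgam). Lama1, the laminin alpha chain of early embryonic basement membranes, was listed at 0 in 7 libraries and had 8 counts (0.0105 FPKM) in wildtype replicate 4.

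**Figure D1:**
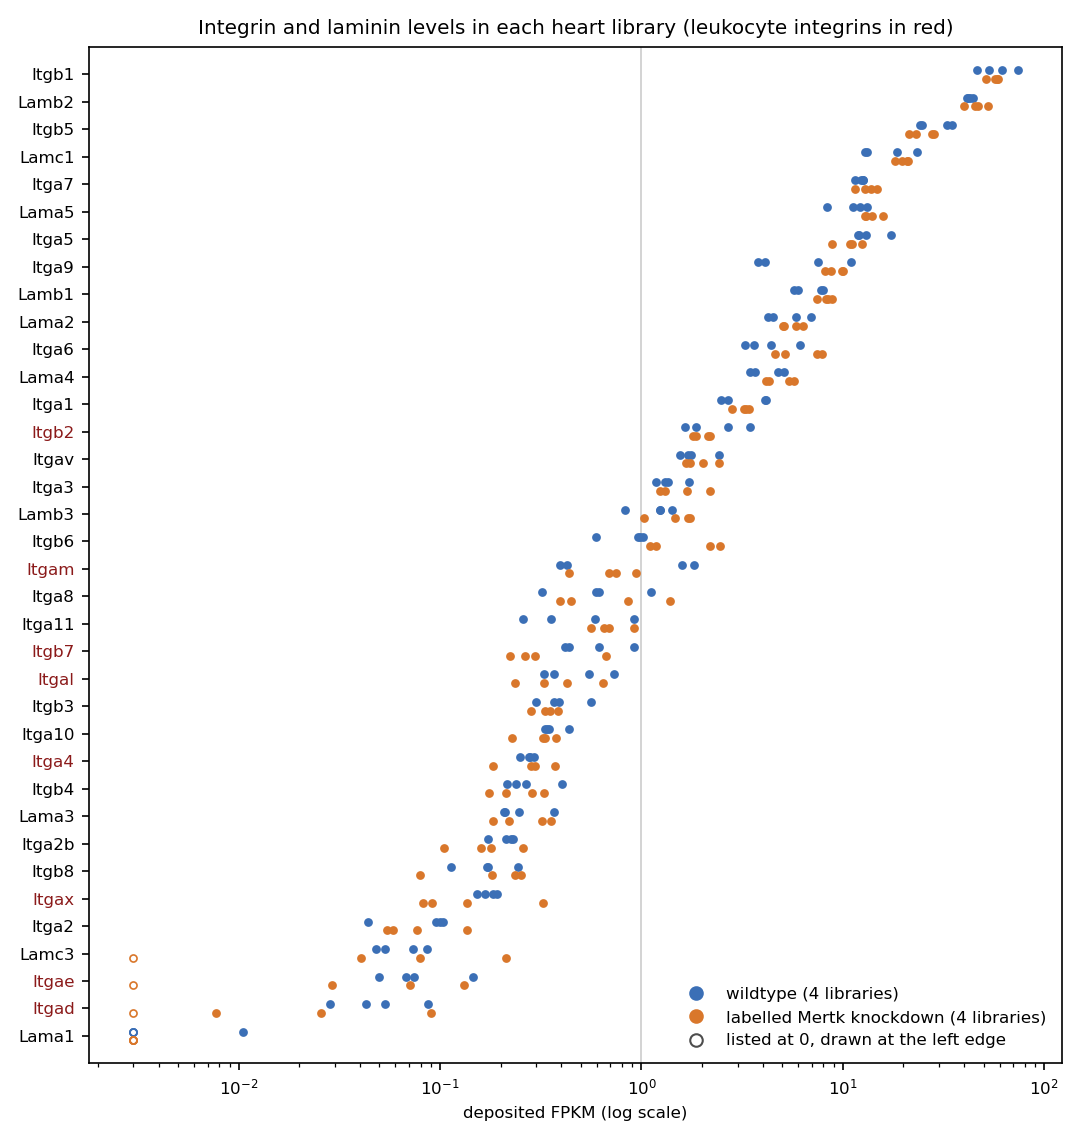
Deposited FPKM (log axis) of 36 members, 1 row per gene in order of mean level, with wildtype libraries in blue and knockdown-labelled libraries in orange. Leukocyte integrins, named in red, average below 1 FPKM except Itgb2, though Itgam reached 1.82 and 1.59 FPKM in wildtype replicates 2 and 4. The blue and orange points intermingle in nearly every row.

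Between the labels, no integrin or laminin gene passed the test. Under edgeR's quasi-likelihood test, adjusted over all 17787 tested genes, 0 of 36 members were higher and 0 lower at an adjusted p of 0.05, where 0.647% of all tested genes were called (0.275% higher and 0.371% lower). At an unadjusted p of 0.05, 4 of 36 members passed, Itgb6, Itga5 and Itga6 among them, or 11.1% against 12.4% of all genes. The libraries of the 2 groups did not overlap for 2 members, Itgb6 among them, or 5.56% against 8.07% of all genes. All 3 shares were below those of the whole table, but they rest on only 0, 4 and 2 of 36 members. DESeq2, run as an alternative, called the same 2 members, Itgb6 as higher and the other as lower. That share of 5.56% was above the 3.76% of all genes that it called. With 1 library left out it called 4.53%, 3.43%, 2.93% and 3.06% of all genes (without wildtype replicate 1, 2, 3 or 4) and 2.88%, 3.02%, 2.76% and 2.57% (without knockdown-labelled replicate 1, 2, 3 or 4). Within the 5 libraries with hepatocyte transcripts it called 2.7% of all genes, among them 4 members (Itga11, Itga9, Lamb1 and Lamc1, all higher), and within the 5 without atrial transcripts 1.47%, with 1 member lower.

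The groups of members leaned in different directions without passing the test. Of the 8 leukocyte integrins, 7 had a log2 fold change (knockdown label minus wildtype) below 0, with a median of -0.43. The 18 non-leukocyte integrins were evenly divided, 9 above and 9 below 0, with a median of -0.01. Of the 10 tested laminins, 9 were above 0, with a median of 0.20. Over all tested genes 49.9% were above 0 and the median was -0.0007.

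**Figure D2:**
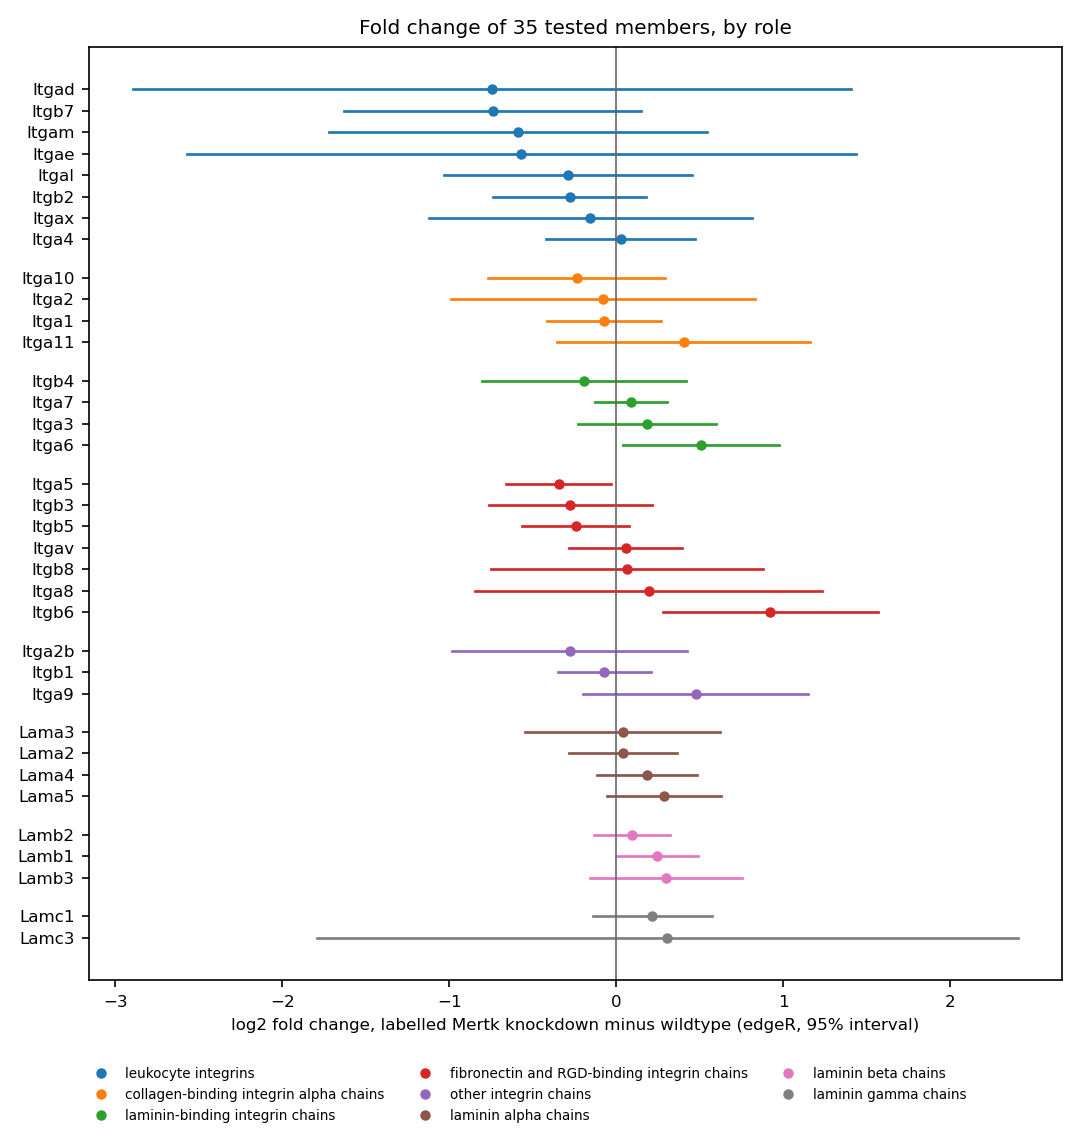
Log2 fold change of 35 tested members (points) with 95% intervals from edgeR (lines), grouped and coloured by role. Intervals exclude 0 for Itga5 on the low side and for Itgb6 and Itga6 on the high side, before any adjustment. The widest intervals are those of Itgad, Lamc3 and Itgae, which have few counts.

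Of the chains of epithelial laminin, Lama3 and Lamb3 did not pass the test. Lama3, its alpha chain, had a log2 fold change of 0.04 (edgeR adjusted p = 0.976) and Lamb3, its beta chain, one of 0.30 (adjusted p = 0.613). Lamb3 stood at 9.12, 5.91, 11.1 and 8.70 CPM in wildtype and 7.75, 10.7, 12.1 and 12.3 CPM in knockdown-labelled libraries, with overlapping groups. Its row is uncertain, because Hsd11b1 and G0s2 overlap it on the other strand at means of 12.3 and 26.2 CPM, above the 9.72 CPM of Lamb3, and the sources used here do not state a strand setting for the counts.

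Lamc1, the gamma chain of nearly all heart laminins, stood at 121.5, 208, 126 and 163 CPM in wildtype and at 169.7, 179, 184 and 186 CPM in knockdown-labelled libraries. The knockdown-labelled libraries were tightly packed within the span of the wildtype ones, where replicate 2 was the highest of all 8. The log2 fold change was 0.22 (SE 0.16, edgeR's adjusted p = 0.649). Within the libraries with hepatocyte transcripts, edgeR gave log2 fold changes of 0.57 for Lamc1, 0.50 for Lamb1 and 0.48 for Lama4. Each was more than 1.5 times its value over all 8 libraries. The only wildtype library there is replicate 1, the lowest wildtype library for each of these genes. Lamc3 had 0 to 96 counts per library and a log2 fold change of 0.31 with an SE of 0.94.

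The laminin alpha chains were dominated by Lama5, the alpha chain of the main endothelial and epithelial laminins. Lama5 stood at 167.0, 102, 164 and 136 CPM in wildtype and at 168, 198, 169 and 158 CPM in knockdown-labelled libraries. Only wildtype replicates 2 and 4 were below all knockdown-labelled libraries, so the groups shared values. Its log2 fold change was 0.29 (SE 0.15, edgeR's adjusted p = 0.505), and within the 5 libraries with hepatocyte transcripts it was 0.06. Lama5 made up 53.1% ± 9.89 of the summed alpha chain FPKM in wildtype and 56.4% ± 4.52 in knockdown-labelled libraries (SD, n = 4 each). Lama2, the alpha chain of the muscle laminin, took 25.5% and 22.7%, and Lama4, an alpha chain of vessel walls, 20.2% and 19.8%. Lama4 was at 46.4, 66.4, 52.8 and 61.4 CPM in wildtype and 56.8, 57.1, 70.1 and 74.0 CPM in knockdown-labelled libraries, with overlapping groups and a log2 fold change of 0.18 (SE 0.14, edgeR's adjusted p = 0.643). Lama2 had a log2 fold change of 0.04 (adjusted p = 0.950). The sum over the alpha chains did not overlap between groups, at 20.5 to 22.1 FPKM in wildtype and 23.3 to 25.4 FPKM in knockdown-labelled libraries. The sums over the beta chains did overlap, at 49.25 to 51.5 FPKM in wildtype and 48.5 to 62.7 FPKM in knockdown-labelled libraries. Those over the gamma chains overlapped as well. FPKM carries no TMM scaling, and none of these sums was tested.

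The laminin beta chains were mostly Lamb2, with 84.0% and 82.6% of the summed beta chain FPKM in wildtype and knockdown-labelled libraries. Lamb2 stood at 299, 279.8, 302 and 267 CPM in wildtype and 275, 351, 305 and 297 CPM in knockdown-labelled libraries, a log2 fold change of 0.10 (SE 0.10, edgeR's adjusted p = 0.770). The groups overlapped. Lamb1, the more widely expressed of the beta chains, was at 63.6, 83.4, 70.6 and 84.6 CPM in wildtype and 83.5, 96.9, 87.6 and 89.6 CPM in knockdown-labelled libraries. Only wildtype replicate 4 lay above the lowest knockdown-labelled library. This made a log2 fold change of 0.24 (SE 0.11, edgeR's adjusted p = 0.406; exact permutation p = 0.0571).

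Endothelial markers leaned the same way as the laminins. Their summed level did not overlap between the groups, at 590 to 681 CPM in wildtype and 702 to 893 CPM in knockdown-labelled libraries, with 7 of 8 markers above a log2 fold change of 0, 3 of them without overlap (4.18% of all genes are so in that direction) and 0 called. Cardiomyocyte markers also had 7 of 8 above 0, 2 of all 8 without overlap and 0 called, and their sums of 31920 to 43610 CPM in wildtype and 44560 to 51070 CPM in knockdown-labelled libraries did not overlap. The part of these cells in the laminin values was not tested, and in whole hearts more cells of a type and more RNA per cell cannot be told apart.

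**Figure D3:**
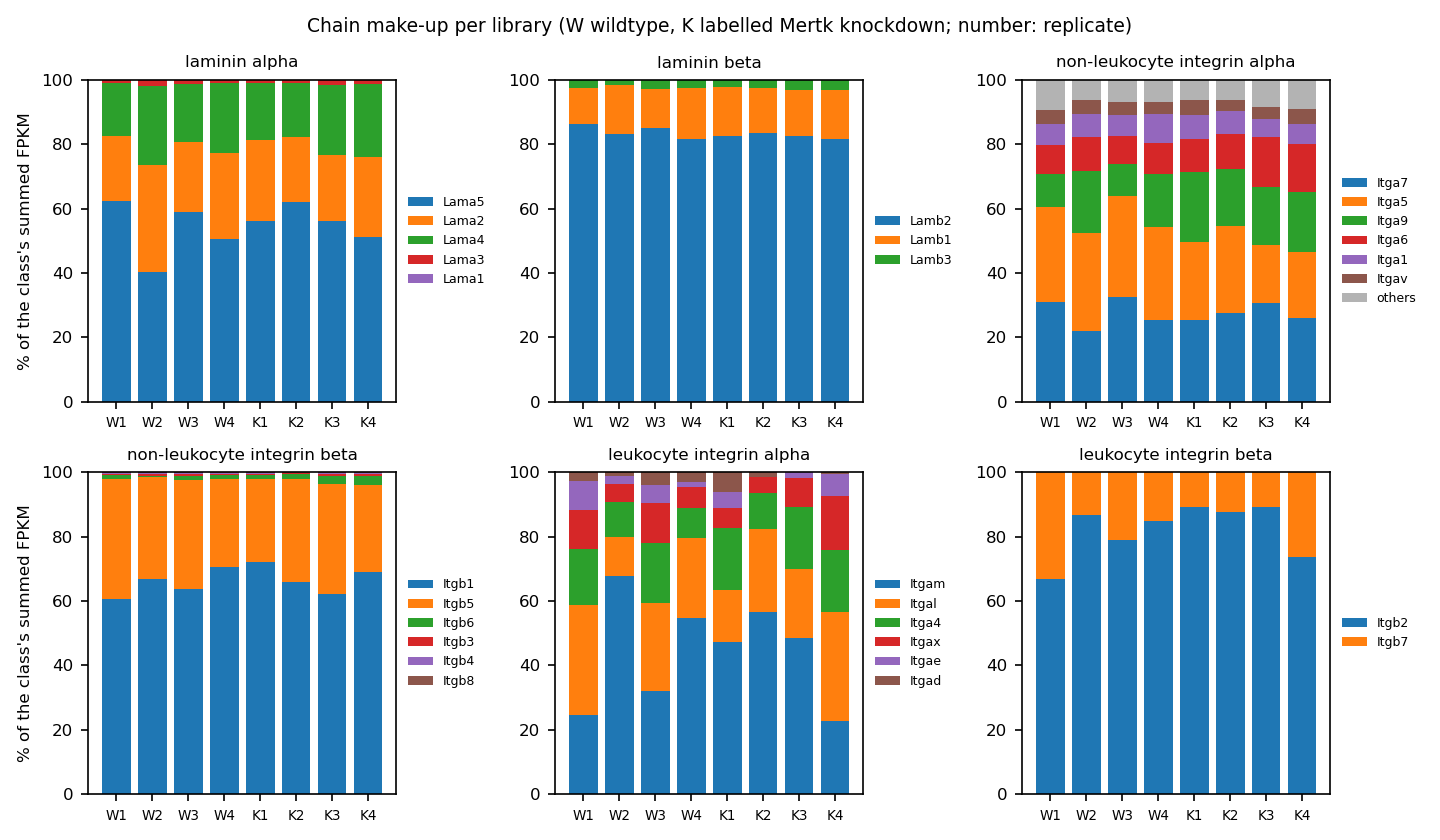
Share of each chain in the summed FPKM of its class, per library (W wildtype, K knockdown label), with leukocyte integrins apart. Lama5 and Lamb2 lead the laminin alpha and beta chains in every library, and the orange Itga5 band of the non-leukocyte alpha panel is thinner in all 4 knockdown-labelled bars.

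Among the integrins that bind laminin, Itga7 was the most abundant and the most even. It stood at 113.6, 109, 118 and 99.2 CPM in wildtype and 105, 114, 128 and 120.2 CPM in knockdown-labelled libraries, with a log2 fold change of 0.09 (SE 0.10, edgeR's adjusted p = 0.786). Itga6 (ENSMUSG00000027111, chr2:71745616-71858416, plus strand), the laminin receptor chain of endothelium and epithelium, was at 37.0, 60.5, 35.4 and 43.1 CPM in wildtype and at 47.6, 52.0, 72.7 and 77.6 CPM in knockdown-labelled libraries. Knockdown-labelled replicates 3 and 4 were above all other libraries, and wildtype replicate 2 was above the other 2 knockdown-labelled ones. The log2 fold change was 0.51 (SE 0.21, edgeR's adjusted p = 0.360), and 0.24 within the 5 libraries without atrial transcripts (adjusted p = 0.937). Itga3, a laminin receptor chain found mostly in epithelia, was at 10.96, 8.33, 8.01 and 7.94 CPM in wildtype and 7.99, 8.26, 10.3 and 13.5 CPM in knockdown-labelled libraries, a log2 fold change of 0.18 (adjusted p = 0.755) that turned to -0.12 both within the libraries with hepatocyte transcripts and within those without atrial ones. Itgb4, the hemidesmosome partner of Itga6, stayed between 1.37 and 3.06 CPM, with a log2 fold change of -0.19 (adjusted p = 0.838).

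Among the fibronectin and RGD-binding chains, Itgb6 and Itga5 had the smallest p. Itgb6 (ENSMUSG00000026971, chr2:60598292-60722643, minus strand) is the epithelial partner of integrin alpha v and is known for activating latent TGF-beta. It stood at 8.12, 4.53, 8.31 and 7.31 CPM in wildtype and at 8.84, 9.21, 16.7 and 18.8 CPM in knockdown-labelled libraries. Knockdown-labelled replicates 3 and 4 were well above the rest, while replicates 1 and 2 lay just above the wildtype range. The mean was 7.07 ± 1.75 CPM (SD, n = 4) against 13.4 ± 5.11, a log2 fold change of 0.92 (SE 0.29, edgeR's adjusted p = 0.221). An exact two-sided permutation test gave p = 0.0286, the smallest that 4 against 4 libraries allow. DESeq2 gave an adjusted p of 0.0368. That call was lost without wildtype replicate 2 (0.0956), wildtype replicate 4 (0.0845), knockdown-labelled replicate 3 (0.171) or knockdown-labelled replicate 4 (0.199), and was kept without each of the others. Within the libraries with hepatocyte transcripts the log2 fold change was 0.73 (edgeR adjusted p = 0.737), and within those without atrial transcripts 0.88 (adjusted p = 0.711).

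Epithelial markers did not follow Itgb6 in every library. Their sum was 2.62 to 6.91 CPM in wildtype and 4.63, 5.17, 7.33 and 21.4 CPM in knockdown-labelled replicates 1 to 4, with 5 of 5 tested markers above a log2 fold change of 0 and 0 called. The sum was highest in replicate 4, where Upk3b, a mesothelial marker, contributed 11.8 CPM. In replicate 3 Itgb6 was nearly as high as in replicate 4 while the marker sum was close to the wildtype range. The part of epithelium in the Itgb6 values was not tested.

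Itga5 (ENSMUSG00000000555, chr15:103344286-103366763, minus strand), the alpha chain of the classical fibronectin receptor, was at 65.8, 92.1, 70.0 and 68.8 CPM in wildtype and at 61.5, 67.9, 46.7 and 57.4 CPM in knockdown-labelled libraries. Only knockdown-labelled replicate 2 exceeded a wildtype library. Its log2 fold change was -0.35 (SE 0.14, edgeR's adjusted p = 0.352; exact permutation p = 0.0571), and -0.16 within the libraries with hepatocyte transcripts. Its share of the summed FPKM of the non-leukocyte alpha chains did not overlap between groups, at 28.8% to 31.5% in wildtype and 18.3% to 27.0% in knockdown-labelled libraries. Of the 37 chain shares computed, 3 did not overlap between groups, that of Itga5 among them. The shares were not tested.

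None of the remaining RGD binders passed the test. Itgb5 was at 131, 133, 104.5 and 91.2 CPM in wildtype and 84.9, 109, 107 and 87.7 CPM in knockdown-labelled libraries, with overlapping groups and a log2 fold change of -0.24 (SE 0.14, edgeR's adjusted p = 0.554). Itgav, the alpha chain that pairs with Itgb3, Itgb5, Itgb6 and Itgb8, had a log2 fold change of 0.06 (adjusted p = 0.929). Itgb3, Itgb8 and Itga8, at means of 2.2 to 6.2 CPM per group, had log2 fold changes of -0.28, 0.06 and 0.19. Their SEs were 0.22, 0.37 and 0.46, all with an edgeR adjusted p of at least 0.674.

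**Figure D4:**
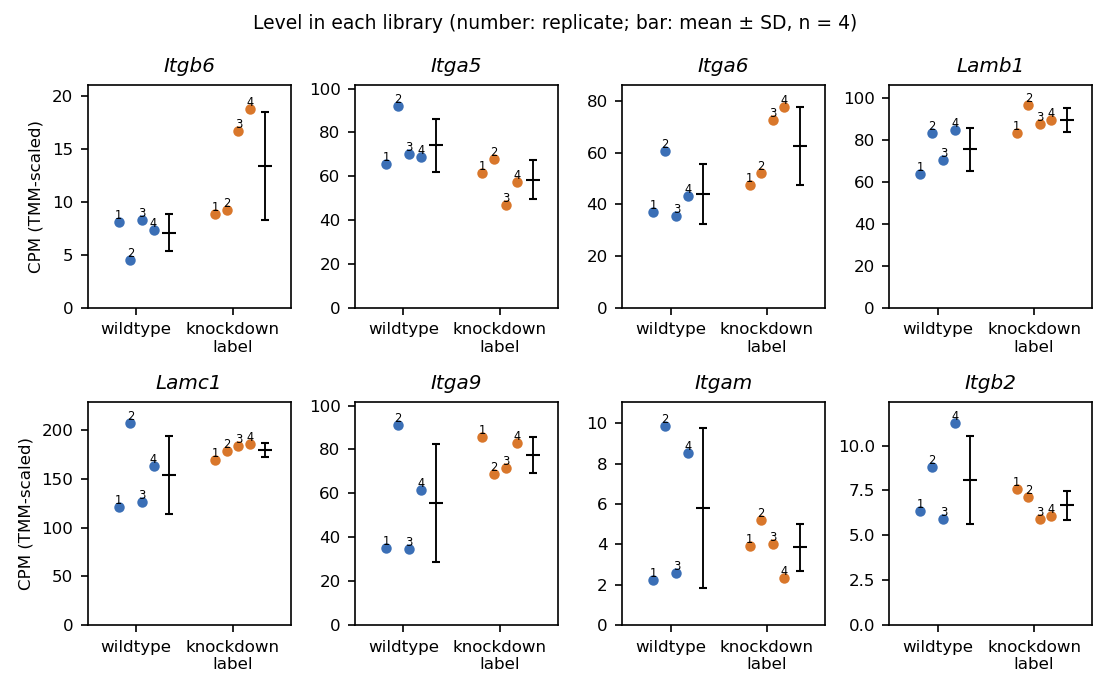
TMM-scaled CPM of 8 members in each library (points, numbered by replicate) with mean ± SD of each group (bars, n = 4). Itgb6 is the panel without overlap. In Itga6, Lamb1, Lamc1, Itga9, Itgam and Itgb2 wildtype replicates 2 and 4 sit above wildtype replicates 1 and 3.

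The collagen-binding chains did not share a direction. Itga1, the most abundant of them and common on vessel and smooth muscle cells, was at 55.6, 82.7, 54.8 and 81.0 CPM in wildtype and 71.7, 66.4, 56.4 and 66.4 CPM in knockdown-labelled libraries. Its log2 fold change was -0.07 (SE 0.15, edgeR's adjusted p = 0.901), and the sign turned in 7 alternatives. Itga11, a fibroblast collagen receptor, was at 1.48, 5.07, 2.17 and 3.23 CPM in wildtype and 3.79, 3.20, 5.05 and 3.79 CPM in knockdown-labelled libraries, a log2 fold change of 0.40 (SE 0.34, edgeR's adjusted p = 0.694). The wildtype values of Itga11 spread 3.42-fold. Its log2 fold change was 0.18 without wildtype replicate 1, 0.79 without wildtype replicate 2, 1.42 within the libraries with hepatocyte transcripts (edgeR adjusted p = 0.254) and 1.44 with the hepatocyte score as covariate. Itga10, a cartilage collagen receptor, was at 2.03, 1.87, 2.71 and 1.901 CPM in wildtype and 2.22, 1.31, 1.85 and 1.83 CPM in knockdown-labelled libraries, a log2 fold change of -0.24 (adjusted p = 0.750). Itga2, the platelet and epithelial collagen receptor, averaged under 1 CPM, with a log2 fold change of -0.08 (adjusted p = 0.964).

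Itgb1, the partner of all those alpha chains, was nearly level. It stood at 242, 323, 225 and 268 CPM in wildtype and 271.5, 256, 224 and 256 CPM in knockdown-labelled libraries, a log2 fold change of -0.07 (SE 0.13, edgeR's adjusted p = 0.872) that turned to 0.06 within the libraries with hepatocyte transcripts. Its 95% interval ran from -0.35 to 0.21. Itga9, a receptor for tenascin and VCAM-1 with a role in lymphatic valves, was at 35.1, 91.1, 34.8 and 61.5 CPM in wildtype and 85.8, 69.0, 71.7 and 82.7 CPM in knockdown-labelled libraries. Wildtype replicate 2 was the highest of all 8 and wildtype replicates 1 and 3 the lowest. This made a log2 fold change of 0.47 (SE 0.30, edgeR's adjusted p = 0.579), and 1.15 within the libraries with hepatocyte transcripts, where the only wildtype library is replicate 1 (adjusted p = 0.0786). Itga2b, the platelet fibrinogen receptor chain, was at 1.39, 1.28, 1.53 and 1.03 CPM in wildtype and 0.648, 1.601, 0.972 and 1.09 CPM in knockdown-labelled libraries, with overlapping groups and a log2 fold change of -0.28 (adjusted p = 0.791).

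The leukocyte integrins were scarce and mostly below 0, and none passed the test. Itgb2 (ENSMUSG00000000290, chr10:77530252-77565686, plus strand), the CD18 chain without which Itgal, Itgam, Itgax and Itgad do not reach the surface, was at 6.36, 8.83, 5.93 and 11.2 CPM in wildtype and 7.56, 7.16, 5.91 and 6.09 CPM in knockdown-labelled libraries. Wildtype replicates 2 and 4 were above all knockdown-labelled libraries and replicates 1 and 3 were among them. The log2 fold change was -0.28 (SE 0.21, edgeR's adjusted p = 0.649), -0.07 without wildtype replicate 4, and 0.08 within the libraries with hepatocyte transcripts. Itgam (CD11b), the myeloid alpha chain whose promoter is printed above, was at 2.24, 9.85, 2.57 and 8.54 CPM in wildtype and 3.91, 5.20, 4.01 and 2.35 CPM in knockdown-labelled libraries. Its wildtype values formed a high and a low pair, with 3 of the 4 knockdown-labelled values between them, and spread 4.40-fold. Its log2 fold change was -0.59 (SE 0.50, edgeR's adjusted p = 0.698). Gm49368 overlaps Itgam on the same strand at a mean of 1.72 CPM, against 4.83 CPM for Itgam, so the Itgam row is uncertain.

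Itgb7, the lymphocyte homing beta chain, had the lowest p of the leukocyte members. It was at 2.87, 1.25, 1.48 and 1.82 CPM in wildtype and at 0.844, 0.936, 0.658 and 2.00 CPM in knockdown-labelled libraries. Of the latter 3 were below all wildtype libraries and replicate 4 was above all but 1 of them. This made a log2 fold change of -0.74 (SE 0.40, edgeR's adjusted p = 0.507), -0.45 without wildtype replicate 1 and -1.18 without knockdown-labelled replicate 4. Itga4, the VCAM-1 receptor chain that also pairs with Itgb7, was at 4.14 to 4.41 CPM in wildtype and 2.85 to 5.59 CPM in knockdown-labelled libraries, the only leukocyte member above 0 (log2 fold change 0.03, adjusted p = 0.977). Counting Itga4, which other cells also use, with the non-leukocyte chains moved the median of the leukocyte integrins to -0.57.

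The rest of the leukocyte integrins had low levels. Itgal (LFA-1 alpha) was at 1.76 to 5.12 CPM, with a log2 fold change of -0.29 (edgeR adjusted p = 0.795). Itgax (CD11c) was at 0.438 to 1.70 CPM with a log2 fold change of -0.16. Itgae (CD103) and Itgad (CD11d) had 0 to 48 and 0 to 31 counts per library, with log2 fold changes of -0.57 and -0.74 and SEs of 0.90 and 0.97. Cox6a2, a muscle gene at 420.7 CPM, overlaps Itgad on the other strand, so the Itgad row is uncertain. In all, 17 members had an overlapping gene in the table and for 5 of them it averaged at least 1 CPM.

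Pan-leukocyte, macrophage and neutrophil markers leaned the same way as the leukocyte integrins. The sum of 8 pan-leukocyte markers was 74.9 to 109.5 CPM in wildtype and 64.7 to 84.8 CPM in knockdown-labelled libraries, with 8 of 8 below a log2 fold change of 0 (median -0.39) and 0 called. For 10 macrophage markers the sums were 167, 265, 177 and 269 CPM in wildtype and 164.5, 136, 154 and 172 CPM in knockdown-labelled libraries, with 10 of 10 below 0 (median -0.51), 2 without overlap (3.9% of all genes are so in that direction) and 0 called. Neutrophil markers summed to 6.12 to 9.41 CPM in wildtype and 2.74 to 5.47 CPM in knockdown-labelled libraries, and their defining genes Ly6g and Mpo had too few counts to be tested. Markers of T and NK cells summed to 1.49 to 8.52 CPM in wildtype and 2.335 to 7.57 CPM in knockdown-labelled libraries, with 3 above and 7 below 0 (median -0.05). The 6 B cell markers summed to 0.915 to 1.901 CPM and 1.46 to 3.95 CPM, with 5 above 0 (median 1.10), and 0 were called in either list. As a share of all integrin FPKM, the leukocyte chains made up 2.98% to 4.99% in wildtype and 2.65% to 3.12% in knockdown-labelled libraries, which overlapped. Whether fewer leukocytes or less RNA per cell went with these values was not tested.

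The members varied between libraries of one group. Of the 31 members averaging at least 1 CPM, 11 had wildtype replicates 2 and 4 both above replicates 1 and 3 (35.5%, against 26.6% of the 13552 genes at that level). They were Itgb2 and Itgam of the leukocyte chains, Itga1, Itga6, Itga9, Itga11 and Itgb1 of the other integrins, and Lama2, Lama4, Lamb1 and Lamc1 of the laminins. Fibroblast markers had the same order, with sums of 1265, 2255, 1391 and 1759 CPM in wildtype replicates 1 to 4, and so had the macrophage markers above. Over the 31 members the median SD of log2 CPM was 0.33 in wildtype and 0.24 in knockdown-labelled libraries, against 0.21 and 0.19 over all genes at that level. The SD was the larger in wildtype for 54.8% of the members and 54.9% of all genes. The median SD of the members was thus above that of all genes averaging at least 1 CPM, but the members and those genes were not matched for level. Their relation to fibroblast content was not tested.

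Some members lie side by side in the genome. Itga1 and Itga2, 20995 bases apart on chromosome 13, had log2 fold changes of -0.07 and -0.08. On chromosome 7, Itgam, Itgax and Itgad lie in a row with gaps of 11.05 and 3.72 kb, and had values of -0.59, -0.16 and -0.74 that none of their SEs separate.

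Genes that work with integrins and laminins were also without a call. Of 31 tested genes of the integrin activation and adhesion complex, 0 were called, 16 were above and 15 below 0 (median 0.01), 4 did not overlap (12.9%, against 8.07% of all genes) and DESeq2 called 3 (9.68%, against 3.76%). Kank2, a talin-binding protein at the edge of adhesions, was at 70.0, 80.2, 72.5 and 78.2 CPM in wildtype and 109, 131, 91.8 and 105 CPM in knockdown-labelled libraries, a log2 fold change of 0.54 (SE 0.11, edgeR's adjusted p = 0.0821, DESeq2 0.00171). Zyx, the actin repair protein zyxin, was at 62.0, 98.6, 58.2 and 69.8 CPM in wildtype and 48.7, 48.2, 49.5 and 54.3 CPM in knockdown-labelled libraries, a log2 fold change of -0.52 (SE 0.15, edgeR's adjusted p = 0.192, DESeq2 0.0475). For both, every library of one group lay on one side of the other group. The other 2 without overlap, Tns2 (log2 fold change -0.31) and Ptk2, the focal adhesion kinase (0.27), were named after their values were seen.

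The ligands and partners were likewise uncalled. Of 20 basement membrane partners of laminin, 0 were called (median 0.05). The 2 with the smallest p were Agrn, the dystroglycan ligand agrin, at 84.4 to 103 CPM in wildtype and 70.1 to 86.4 CPM in knockdown-labelled libraries (log2 fold change -0.30, SE 0.10, edgeR's adjusted p = 0.268), and Hspg2, perlecan, at 344.5 to 579 CPM and 511 to 610.0 CPM (0.37, SE 0.16, edgeR's adjusted p = 0.3995). Both overlapped between the groups. Of 8 tested ligands on cells, 0 were called (median 0.04). Icam1, the ligand of Itgal and Itgam with Itgb2, was at 13.2 to 18.9 CPM in wildtype and 10.5 to 13.5 CPM in knockdown-labelled libraries (-0.40, SE 0.14, edgeR's adjusted p = 0.274), and Icam2 at 8.78 to 12.9 and 8.38 to 9.24 CPM (-0.28, adjusted p = 0.492). Of 10 tested ligands in the matrix, 0 were called by edgeR and 1 by DESeq2 (10% against 3.76% of all genes), with a median of 0.16. Vtn, vitronectin, was at 17.4, 8.55, 9.13 and 10.3 CPM in wildtype and 15.4, 19.6, 26.3 and 23.3 CPM in knockdown-labelled libraries (0.90, SE 0.24, edgeR's adjusted p = 0.169, DESeq2 0.0118). It is a major hepatocyte product, and its highest wildtype library was replicate 1, the one with hepatocyte transcripts; their part in the Vtn values was not tested. Fbln5, the elastic fibre protein fibulin-5, was at 17.1, 40.9, 19.3 and 28.3 CPM in wildtype and 17.5, 17.1, 19.7 and 22.6 CPM in knockdown-labelled libraries (-0.46, SE 0.25, edgeR's adjusted p = 0.523).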

How the data were processed

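Poly(A) RNA of mouse hearts was sequenced as paired ends in 8 libraries, per the labels' protocols. The deposited table holds 30445 genes with 2 units made by the authors, per the file headers: raw read counts, and FPKM, which divides counts by gene length and library total. The submitters' processing notes name cutadapt 1.9, HISAT2 2.2.1, StringTie 2.1.6, DESeq2, edgeR and build mm10, without roles; strand use and annotation release are not given in the sources used here. All 37 member identifiers were in GENCODE release M21 under the same name, 34 with the same start and end.

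The deposited counts were tested over all genes with edgeR 4.0.16 (R 4.3.3; TMM, filterByExpr, robust glmQLFit, two-sided glmQLFTest), with Benjamini-Hochberg adjustment over 17787 genes and a call at 0.05. SE is the log2 fold change divided by the square root of F. CPM are TMM-scaled, and FPKM served for levels and shares. The script was tested on simulated data. No pair of replicates looked like 1 library deposited again (chi-square test of counts). Alternatives were RLE and upper quartile scaling, no filter, DESeq2 1.42.0, limma 3.58.1 on log2(FPKM + 1) and log2(FPKM + 0.1), a replicate block, marker scores as covariates, subsets of libraries (hepatocyte markers of at least 200 CPM, or atrial score under 2), Itga4 moved, and each library left out. The subset without atrial transcripts, and DESeq2 on subsets or with a library left out, were chosen after seeing the data. Named members were the called ones, the 2 smallest p and the highest level in each of 8 role groups, and the untested one; from each pathway list the 2 smallest p. Other members are summarised or were added to complete a group. The members and lists were chosen with earlier results of these data known. 1 member is not reported here, though all counts and medians of members include it.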

Additional observations from a re-analysis of the deposited data

Results flagged for a closer look

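Among 72 groups of 4 libraries searched (each tested member in each label), 3 had a library far from the other 3, and at 1 in 20 chance alone would give 3.6. Itga5, the fibronectin receptor alpha chain, was 92.1 CPM in wildtype replicate 2, where the other wildtype libraries had 65.8 to 70.0 CPM. Without that library its log2 fold change was -0.22 in place of -0.35. Itga3, a laminin receptor alpha chain, was 10.96 CPM in wildtype replicate 1, where the others had 7.94 to 8.33 CPM. Itga2, a collagen receptor alpha chain with few counts, was 0.382 CPM in wildtype replicate 3, where the others had 0.769 to 0.788 CPM.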

How the results depend on the processing

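The main test called 0 members in either direction, and so did every edgeR and limma alternative run. DESeq2 called 1 member higher (Itgb6) and 1 lower. On the libraries without atrial transcripts it called 1 lower. Its calls on the libraries with hepatocyte transcripts, given above, rest on 1 wildtype library. That library has to be assumed to vary like the knockdown-labelled ones, so no conclusion is drawn from those calls. With DESeq2 and each library left out in turn, 0 to 2 members were called higher (2, Itga6 and Itga9, without wildtype replicate 2) and 0 to 1 lower. The median of the leukocyte integrins went from -0.43 to -0.060 with log2(FPKM + 1), a scale that compresses low values, to -0.245 with log2(FPKM + 0.1), to -0.24 without wildtype replicate 4 and to -0.28 without knockdown-labelled replicate 3. That of the laminins went from 0.20 to 0.117 without wildtype replicate 1, 0.118 without knockdown-labelled replicate 4 and 0.112 without atrial transcripts. Of 609 values of the 21 named members under 29 alternatives, 573 kept sign and side of the threshold, 15 passed it under DESeq2 and 21 changed sign, all in 5 members. With the hepatocyte score as covariate these were Itga1 (0.30), Itga3 (-0.10), Itga7 (-6.9e-05), Itgb2 (0.20) and Itgb1 (0.095). Within the libraries with hepatocyte transcripts edgeR gave Itga1 0.24, Itga3 -0.12, Itgb2 0.080 and Itgb1 0.064, and DESeq2 0.23, -0.13, 0.073 and 0.057. Without atrial transcripts Itga3 was -0.12 by edgeR and -0.13 by DESeq2. With each library left out in turn, edgeR gave -0.17 to 0.037 for Itga1 (above 0 without wildtype replicate 2 or 4) and -0.14 to 0.044 for Itgb1 (above 0 without wildtype replicate 2), and DESeq2 without wildtype replicate 2 gave 0.030 and 0.037, and without wildtype replicate 4 0.017 for Itga1. The cause of these changes was not tested. Over all genes the main test called 115, DESeq2 668, limma 69 to 70, the replicate block 24, the hepatocyte covariate 18, the atrial covariate 52, the libraries with hepatocyte transcripts 42, those without atrial transcripts 6, and edgeR with each library left out 44 to 265. The replicate block called 0 members. Deviations of same-numbered libraries had correlations of -0.006 to 0.181, over 0.1 for replicate 4 alone, and 3 of 8 libraries, both of replicate 4 among them, correlated best with their own number, so the numbers were not taken to pair the libraries. The 5 tested members under 1 CPM had SEs of 0.41 to 0.97; counting error and spread between libraries were not separated.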
